A study of Mus musculus with 4 samples.

Results

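Speer-high cells were the 1000 cells of the A0 library and the 1000 cells of the A10 library with the highest mean deposited value over 6 genes, namely Speer4e, Speer4c, Gm10354, Gm10220, Gm17019 and Gm21190. Together they were 2000 of the 18623 cells of these libraries, and the whole series held 27060 cells. The cells were selected on measured values of these genes, so the levels of the 6 genes in them are a description and not a result. The lowest score of a Speer-high cell was 0.6372 in A0 and 0.7135 in A10, and the highest score of any other cell was 0.6367 and 0.7131. Within 10% of that limit lay 198 Speer-high and 222 other cells in A0, and 230 and 227 in A10, so the selection took a range of a score without a gap and not a separate group. A score of 0 was found in 39.3% of A0 cells and 40.7% of A10 cells.

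The series measured testis cells of male ICR mice, an outbred stock, by droplet single-cell RNA sequencing, which counts captured transcripts as unique molecular identifiers (UMIs). A0 was the vehicle control with alginate oligosaccharides (AOS) at 0 mg/kg, and A10 received AOS at 10 mg/kg of body weight. The other libraries were B0, with busulfan and no AOS, and BA10, with both agents. Each group was 1 library of testis cells that were pooled from several animals ahead of the droplet step. Dosing began in young animals and went on for weeks before the testes were taken, and the labels give no age at collection. Single animals are therefore not resolved, no test between groups was possible, and A10 against A0 compares 2 libraries. Intervals below are exact 95% intervals and cover counting error only, apart from those of median UMIs, which are described with them.

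The Speer genes encode glutamate-rich proteins of spermatogenesis and form a multicopy rodent family, most of whose copies lie on mouse chromosome 5. Male germ cells pass through a long meiotic prophase as spermatocytes, divide under the control of cyclins and the kinase Cdk1, and then form an acrosome as round spermatids. Elongating spermatids later replace their histones by transition proteins and protamines. In spermatocytes the X and Y chromosomes are transcriptionally silenced, and some of their genes become active again in spermatids.

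The label given to these cells, germ cells of low RNA content, was set against the data. The median Speer-high cell held 10433 UMIs in A0 (quartiles 9321 and 13138) and 9024.5 in A10 (quartiles 8024 and 14784), while the median of the other cells was 13075 and 11212 UMIs. The ratio of the medians was 0.798 in A0 (interval 0.785 to 0.812) and 0.805 in A10 (0.793 to 0.823). These intervals cover the spread of the Speer-high median over cells, with the median of the other cells held fixed. The Speer-high cells were thus shallower than the rest but not the shallowest. Of 23 clusters with at least 50 cells in each library, 3 in A0 and 2 in A10 had a lower median than cluster 0, which held the most Speer-high cells. Those were clusters 1 and 18 in both libraries and also cluster 21 in A0. Their leading genes included Prm1 and Tnp1 (cluster 1), Car2 and Spem1 (cluster 18) and Defb19 and Cst12 (cluster 21). Over 20000 UMIs were held by 136 Speer-high cells in A0 and 121 in A10. Both libraries began at a sharp lower limit of UMIs (7687 and 6716), with the shallowest Speer-high cells at 7689 and 6723, so shallower cells are not seen. The number of genes per cell was lower too (median 3226.5 against 3385 in A0 and 2988 against 3089 in A10). Once every cell was thinned to 5000 UMIs, with no cell left out, the order turned (2184 against 2142 and 2170 against 2125 genes).

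Genes that mark the germ line (Ddx4, Mael, Tdrd1 and 5 more) were detected in the Speer-high cells at a summed level of 2430 CPM (UMIs of a gene per 1000000 UMIs of the pool) in A0 and 2230 CPM in A10, against 1930 and 1855 CPM in the other cells. Mael made up 1446 CPM of the sum in A0 and 1328 CPM in A10. Ddx4, Mael, Tdrd6, Tdrd7 and Tex14 were higher in the Speer-high cells of both libraries. Tdrd1 (log2 ratios -0.36 and -0.49), Piwil2 (-0.34 and -0.60) and Rnf17 (-0.46 and -0.35) were lower. Markers of other cell types were near 0. Leydig cell markers summed to 3.14 and 3.25 CPM, macrophage markers to 7.40 and 6.27 CPM, endothelial markers to 4.71 and 5.16 CPM, and peritubular myoid markers to 5.23 and 4.6 CPM. Sertoli markers reached 25.4 and 31.3 CPM, and for each of these lists, as for the spermatogonial markers at 42.2 and 43.8 CPM, the median over Speer-high cells was 0 CPM. Haemoglobin transcripts differed between the libraries through 1 cell: of 300 UMIs of Hba-a1 and Hbb-b1 in the Speer-high cells of A10, 278 lay in a single cell, and the 1000 cells of A0 held 29 in all.

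Scrublet called 3.30% of Speer-high cells doublets in A0 and 4.80% in A10, against 8.74% and 9.12% of the other cells. Called cells were kept. They were deeper (median 19741 and 13968 UMIs) and held 37398 and 54331 CPM of elongating-spermatid genes, against 9694 and 13292 CPM in the Speer-high cells that were not called. A0 and A10 shared 135 cell barcodes. In A0, 12 Speer-high cells carried a barcode found in A10, in A10 11 carried one found in A0, and 1 barcode was Speer-high in both.

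All 6 genes of the selection lie on the minus strand of chromosome 5 (mm10), and 5 of them sit close together: Speer4e at chr5:14933221-14938429, Gm10354 at chr5:14974113-14978935, Gm17019 at chr5:15028950-15032998, Gm21190 at chr5:15524456-15529222 and Speer4c at chr5:15709501-15714271. Gm10220 lies apart from them at chr5:26114764-26121421. All are annotated as protein coding. Some of the copies share much of their transcript sequence, and the counts of those genes may be split among them. In the last 500 bases of the annotated transcripts, where the 3′ chemistry reads, the share of 100-base windows found unchanged in a transcript of another gene was 71.3% for the longer transcript of Speer4c, 67.3% for Gm21190, 40.9% for Gm17019, 26.7% for Gm10354, 8.23% for Gm10220 and 0% for Speer4e. Gm21190 and Speer4c also overlap annotated genes of the opposite strand (Gm21847 and Speer4cos), and the strand setting of the counting is not given in the sources used here.

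The likeness extends to the sequence around the transcription start. RefSeq promoters (GRCm38.p6, from 250 bases before to 50 bases after the start) were on hand for the 6 genes and for 7 other Speer genes. Stretches of 100 bases are shown for 3 genes of the selection and for Speer3, a relative on the same chromosome, to show how near the copies are and what they share. Capitals mark the 8 letters TGATGTCA, or their reverse complement TGACATCA.
Speer4e, chr5:14938447-14938546, minus strand: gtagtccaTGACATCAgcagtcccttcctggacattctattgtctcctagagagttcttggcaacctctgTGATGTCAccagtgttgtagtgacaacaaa
Gm21190, chr5:15529259-15529358, minus strand: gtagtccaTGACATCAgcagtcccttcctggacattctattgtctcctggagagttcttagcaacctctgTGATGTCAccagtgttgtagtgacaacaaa
Gm10220, chr5:26121391-26121490, minus strand: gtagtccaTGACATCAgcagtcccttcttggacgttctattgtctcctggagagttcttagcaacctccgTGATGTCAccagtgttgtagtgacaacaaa
Speer3, chr5:13791519-13791618, plus strand: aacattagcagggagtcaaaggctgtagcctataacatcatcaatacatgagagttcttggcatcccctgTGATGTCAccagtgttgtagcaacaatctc
Among the 6 genes of the selection, the 15 pairs of such stretches had 95 to 99 of 100 bases in common, and with Speer4d and Speer4a they had 94 to 100. With Speer3 they had 50 to 53 in common and with Speer4f1 43 to 46. The comparison allowed no gaps, so a stretch shifted by an insertion or deletion counts as unlike, and these low counts do not measure divergence. The letters TGATGTCA, read on either strand, were in the promoters of 6 of 6 genes of the selection and 5 of 7 other Speer genes, the exceptions being Speer1 and Speer2. They were in 3.62% of 32851 mouse promoters of the same length. The related letters TGACGTCA were in 1.79% of all promoters and in 0 of these 13. Since the copies share most of this stretch, the matches are not independent of one another, and a match is no evidence of a bound site.

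In the Speer-high cells the 6 genes together made up 1073 CPM in A0 and 1221 CPM in A10, against 113 and 131 CPM in the other cells. This is the selection itself and is given as a description. Gm21190 stood at 463.5 CPM in A0 (6205 UMIs) and 500.9 CPM in A10 (6315 UMIs), Speer4e at 250.4 and 301.9 CPM, Gm10354 at 142.5 and 173.1 CPM, and Gm17019 at 126.6 and 137.3 CPM. Speer4c (46.2 and 60.3 CPM) and Gm10220 (44.2 and 47.8 CPM) rested on 592 to 760 UMIs each. Log2 ratios of the 6 genes, with 1 CPM added, ran from 2.79 to 3.32 in A0 and from 2.71 to 3.24 in A10. The median Speer-high cell held 12 UMIs of the 6 genes together in each library, with a range of 5 to 69 in A0 and 5 to 103 in A10. UMIs of all 6 genes were seen in 12.2% and 15.6% of the cells and of 4 genes in 40.8% and 38.2%. A Speer4e UMI was found in 96.6% and 96.9% of Speer-high cells, and in 73.7% (interval 70.9 to 76.4) and 80.5% (77.9 to 82.9) at 5000 UMIs a cell. Cluster 1, led by haemoglobin, protamine and transition protein genes and with median depths of 9749 and 8531 UMIs, gave 3.11% and 3.95% of cells with a Speer4e UMI, or 1.04% and 2.03% at 5000 UMIs.

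**Figure D1:**
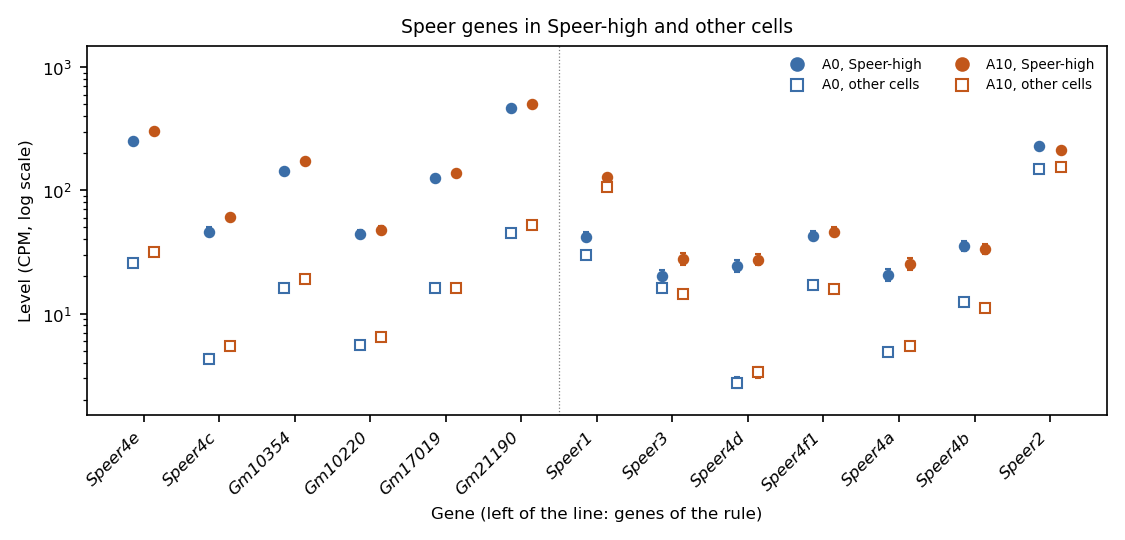
Levels of the 6 genes of the selection (left of the dotted line) and of the 7 other Speer genes in Speer-high cells (filled circles) and all other cells (open squares) of A0 (blue) and A10 (orange), in CPM on a log scale with exact 95% Poisson intervals. The genes of the selection differ by construction. Among the others Speer4d, Speer4a, Speer4b and Speer4f1 were at least 2-fold higher in Speer-high cells, while Speer1, Speer2 and Speer3 lay closer together.

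The other Speer genes did not enter the selection, though reads of the near-identical copies may be split among them. At 20 CPM or more in either pool, 5647 genes were compared in A0 and 5539 in A10. Of these 7.3% (412 genes) were at least 2-fold higher in the Speer-high cells of A0 and 4.8% (266 genes) in those of A10, and 18.5% (1046 genes) and 16.4% (909 genes) were at least 2-fold lower. The number higher depended on the setting. In A10 it ran from 129 with 10 CPM added to 469 as means over cells, and in A0 from 206 with 10 CPM added to 625 with no minimum. The median log2 ratio over all genes compared was 0.25 and 0.21. Of the 7 other Speer genes, 4 were at least 2-fold higher in both libraries and 0 were lower. These 4 reached 20 CPM in the Speer-high cells alone, so they could enter the comparison only as higher, and the count is a description. Speer4d rose from 2.75 CPM in other cells to 24.3 CPM in Speer-high cells in A0 and from 3.33 to 27.4 CPM in A10. Speer4a went from 4.87 to 20.6 CPM and from 5.45 to 25.2 CPM. Speer4b went from 12.5 to 35.6 CPM and from 11.04 to 33.4 CPM, and Speer4f1 from 17.1 to 42.8 CPM and from 15.9 to 46.2 CPM. Below 2-fold were Speer3 (16.04 and 20.02 CPM in A0, 14.3 and 27.8 CPM in A10), Speer2 (149.6 and 230.7 CPM, 154.4 and 214.0 CPM) and Speer1 (29.7 and 42.0 CPM, 105.9 and 127.5 CPM).

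The levels of the family were also read in clusters built without any gene named Speer and without the 6 selected genes. Gm21149, Gm9758 and Gm21680, which share 100-base windows with the selected genes, were not left out, so these clusters are not independent of the selection. The 18623 cells of A0 and A10 formed 26 clusters, numbered by size. All 6 genes of the selection were highest in cluster 0 or cluster 9 in both libraries. So were Speer4d, Speer4f1, Speer4a and Speer4b, but with different tails: at cluster 2, whose leading genes include Tssk5 and Spam1, Speer4f1 kept 33.8 of 47.0 CPM in A0 and Speer4b 29.4 of 35.9 CPM, whereas Speer4e kept 25.5 of 209.4 CPM and Speer4d 1.64 of 23.6 CPM. Speer2 was highest in cluster 13, led by the spermatocyte gene Pou5f2, at 359.4 CPM in A0 and 337.6 CPM in A10. Speer1 had its highest levels in clusters 13 and 15 (101.3 and 108.1 CPM in A0, 370.3 and 349.4 CPM in A10). Speer3 was highest in cluster 7, led by Tmco5b, Dyrk4 and Pex5l, at 32.8 and 32.5 CPM, and stood at 0.734 CPM in cluster 13 of A0. The 6 genes of the selection were low both in cluster 13 (14.2 and 20.9 CPM together) and in cluster 7 (71.1 CPM over both libraries).

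**Figure D2:**
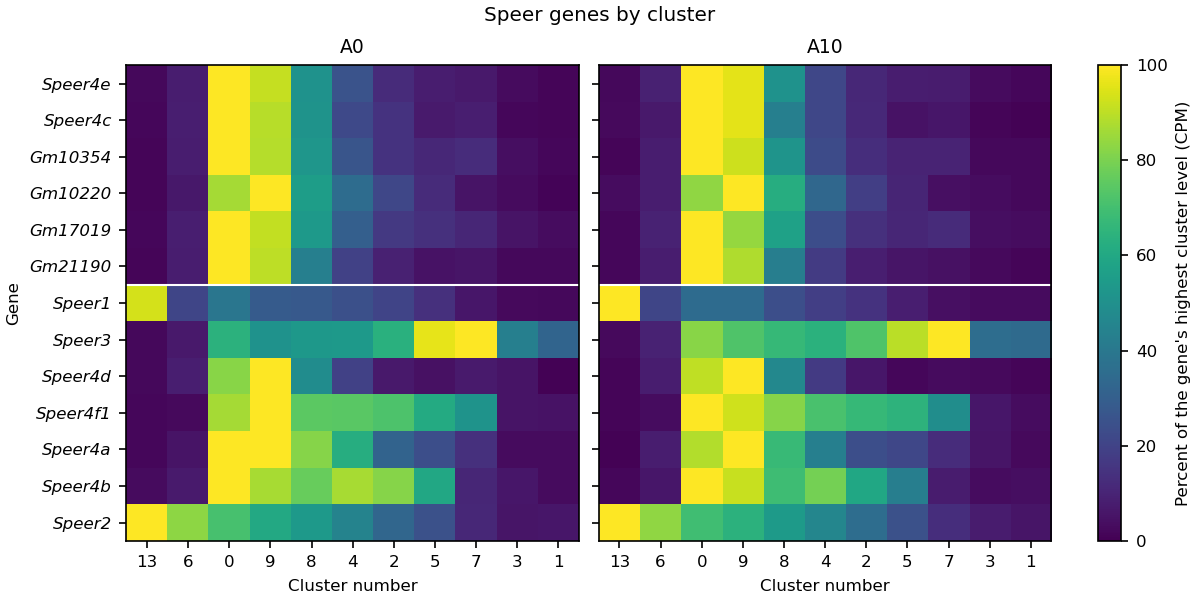
Level of each Speer gene (rows, genes of the selection above the white line) in 11 clusters (columns, by cluster number) as a percent of the gene's highest level among 23 clusters, separately for A0 and A10. The genes of the selection are brightest in clusters 0 and 9 and fall off through cluster 8, Speer2 is brightest in cluster 13, as is Speer1 among the clusters drawn (in A0 its highest level was in cluster 15, not drawn), and Speer3 is brightest in cluster 7. The order of columns was set by hand.

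Clusters 0 and 9 held 80.6% of the Speer-high cells in A0 (interval 78.0 to 83.0) and 73.4% in A10 (70.5 to 76.1), and 7.04% and 6.58% of the other cells. Cluster 0 had 541 and 491 Speer-high cells. Apart from Gm21149, Gm6408, Gm9758 and LOC105242399, its leading genes included Ccna1, the meiotic cyclin A1. Cluster 9 had 265 and 243 and was led by Ssxb3, an X-linked gene of the SSX family, together with haemoglobin genes and Gm12695. The haemoglobin lay in its A0 cells that were not Speer-high (Hbb-b1 at 315.3 CPM). Its Speer-high cells had 1.34 CPM of Hbb-b1 in A0 and 0.917 CPM in A10. Of 5288 UMIs of Hba-a1 and Hbb-b1 in all other cells of A0, 1523 lay in 1 cell. The haemoglobin level of cluster 9 may thus rest on 1 cell. Cluster 10 held 69 and 111, and 35.9% of all its cells were called doublets. Its Speer-high cells carried 41230 and 52362 CPM of elongating-spermatid genes, against 7427 and 9395 CPM in those of cluster 0. Cluster 8, led by Ssxb2 and Ssxb3, held 58 and 76. Of all cells in cluster 0, 59.0% were Speer-high, and in cluster 9 55.1%.

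Inside cluster 0 the Speer-high and the other cells had similar median depths and similar levels of 3 stage lists. In A0 its 541 Speer-high cells and 349 other cells had medians of 10171 and 10275 UMIs, 3678 and 3705 CPM of meiotic division genes, 16003 and 16077 CPM of pachytene genes and 2362 and 2261 CPM of acrosome genes, while the 6 genes of the selection stood at 1140 and 512 CPM. In A10 the same values were 8596 and 8528 UMIs, 3444 and 3476 CPM, 15577 and 15970 CPM, 2356 and 2299 CPM, and 1320 and 628 CPM. They were not alike in all respects. The upper quartile of UMIs was 12058 against 11436 in A0 and 14146 against 9296 in A10. Ssxb3 stood at 23.4 against 15.2 CPM in A10 (15.6 against 16.6 CPM in A0). The erythroid genes stood at 18.6 against 1.75 CPM in A10, possibly through the single cell above. The limit of 1000 cells ran through this cluster.

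The genes with the largest differences in both libraries, apart from the selected and Speer genes, included further genes of chromosome 5. LOC105242399, which the annotation used here does not place, stood at 71.0 CPM in Speer-high and 7.69 CPM in other cells of A0 and at 75.4 and 9.09 CPM in A10 (log2 ratios 3.05 and 2.92). Gm21149 had log2 ratios of 2.86 and 2.81, Gm9758 of 2.43 and 2.47, Gm6408 of 2.54 and 2.42 and Gm21680 of 2.25 and 2.29. Of these, Gm21149, Gm9758 and Gm21680 share 100-base windows with transcripts of the selected genes, so part of their counts may belong to those genes. Gm2897 (2.70 and 2.65) and Gm3476 (1.64 and 1.67) lie on chromosome 14. Within chr5:11341516-27501438, which spans the Speer genes of that chromosome, 28 other genes were compared, of which 4 in A0 and 5 in A10 were at least 2-fold higher and 4 in each were lower, beside 7.3% and 4.8% higher and 18.5% and 16.4% lower over all genes. The genes higher in both libraries were Gm6650, Gm9758, Gm21149 and Gm21680. Gm9758, Gm21149 and Gm21680 reached 20 CPM in the Speer-high cells alone. They could enter the comparison only as higher, so the count of higher genes is a description. The median log2 ratio of the 28 genes was 0.11 in A0 and 0.15 in A10, below that of all genes compared.

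Other leading genes lay outside that region. Of these, Ssxb3, Chgb, Usb1, Tmem109 and Gm12695 reached 20 CPM in the Speer-high cells alone, so they could enter only as higher. The same holds for LOC105242399, Gm6408, Gm2897 and Gm3476. Ssxb3 rose from 6.53 to 31.5 CPM in A0 and from 7.59 to 34.1 CPM in A10. Chgb, which encodes the secretory granule protein chromogranin B, went from 6.35 to 24.7 CPM and from 7.28 to 28.4 CPM. Usb1, the exonuclease that trims U6 small nuclear RNA, went from 12 to 40.7 CPM and from 11.4 to 37.9 CPM. Sh3gl1, which encodes endophilin A2 of membrane trafficking, went from 61.0 to 203.1 CPM and from 59.3 to 187.4 CPM. Log2 ratios of Tmem109 were 2.33 and 1.94, of Gm12695 1.77 and 1.62, of Zc2hc1a 1.59 and 1.66, and of Arl14ep 1.56 and 1.56. Sh3gl1 and Usb1 were also high in cluster 6, led by Cdk1 (175.4 and 36.4 CPM in A0), whereas Arl14ep, Gm12695 and Zc2hc1a were higher in clusters 8 and 9 than in cluster 0.

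The genes at least 2-fold higher were shared in part: 251 genes passed in both libraries, which was 60.9% of those of A0 and 94.4% of those of A10. For genes at least 2-fold lower the 893 shared genes were 85.4% and 98.2%. The Speer-high and other cells of a library come from 1 capture, and these counts carry no test.

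Genes of the meiotic divisions had the highest summed ratio of the lists compared, apart from the selected genes. Of 12 meiotic division genes, 10 were at 20 CPM or more, and 6 of them were at least 2-fold higher in the Speer-high cells of each library and 0 were lower, beside 7.3% and 4.8% higher over all genes compared. Their median log2 ratio was 1.12 in A0 and 1.02 in A10. Their summed level was 3199 CPM against 1276 CPM in A0 and 2964 against 1287 CPM in A10. Ccna1 stood at 606.5 against 201.8 CPM in A0 and 548.4 against 200.1 CPM in A10. Ccnb1, cyclin B1, stood at 446.9 against 148.5 CPM and 404.3 against 139.8 CPM, and the mitotic kinase gene Aurka at 555.6 against 201.2 CPM and 516.6 against 210.8 CPM. Plk1, a kinase of division, had log2 ratios of 1.52 and 1.45. Cdk1 itself was below 2-fold, at 110.6 against 62.3 CPM and 97.2 against 66.9 CPM, and Cdc25c was near level (-0.13 and 0.06).

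Genes of earlier stages differed less. The 10 pachytene genes summed to 15257 against 11616 CPM in A0 and 14741 against 11805 CPM in A10. Of those tested, 1 of 9 in A0 was at least 2-fold higher (Tbpl1, a TBP relative, log2 ratio 1.02, and 0.92 in A10) and 1 of 9 in A0 and 2 of 10 in A10 were lower, counts near the 7.3% higher and the 18.5% and 16.4% lower over all genes. The lower gene of both libraries was Pou5f2, at 9.11 against 44.1 CPM and 8.96 against 52.2 CPM, and in A10 Tdrd5 was lower as well (8.88 against 20.1 CPM). Both reached 20 CPM in the other cells alone, so they could enter only as lower. Early prophase genes summed to 966 against 832 CPM and 957 against 856 CPM, with 0 of 7 past 2-fold in either direction and a median log2 ratio of -0.03 in A0, opposite in sign to the sum. Dmc1 and Prdm9, genes of meiotic recombination, were under 1 CPM in the Speer-high cells of both libraries.

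Later stages were lower. Of 12 acrosome and round spermatid genes, 8 were at least 2-fold lower in A0 and 5 in A10, and 0 were higher, beside 18.5% and 16.4% lower over all genes compared. The median log2 ratios were -1.08 and -0.89. The list was not uniform: Acrbp and Zpbp, which encode acrosomal proteins, had log2 ratios of 0.64 and 0.48 in A0 and 0.54 and 0.44 in A10, while the spermatid kinase gene Tssk2 was at 228.4 against 1005 CPM and 248.1 against 849.6 CPM. Of 12 elongating-spermatid genes, 12 in A0 and 11 in A10 were at least 2-fold lower, against the same shares over all genes. Their summed level was 11085 against 52622 CPM and 16024 against 58637 CPM, and Prm1, protamine 1, stood at 2514 against 13260 CPM and 4382 against 17810 CPM. Over single cells the median level of this list was 7894 CPM in A0 and 10240 CPM in A10. The median over single other cells was 18580 and 21350 CPM, a smaller difference than that of the pools. The pooled level of the list was higher in the Speer-high cells called doublets (above), and the part of doublets in it was not tested.

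**Figure D3:**
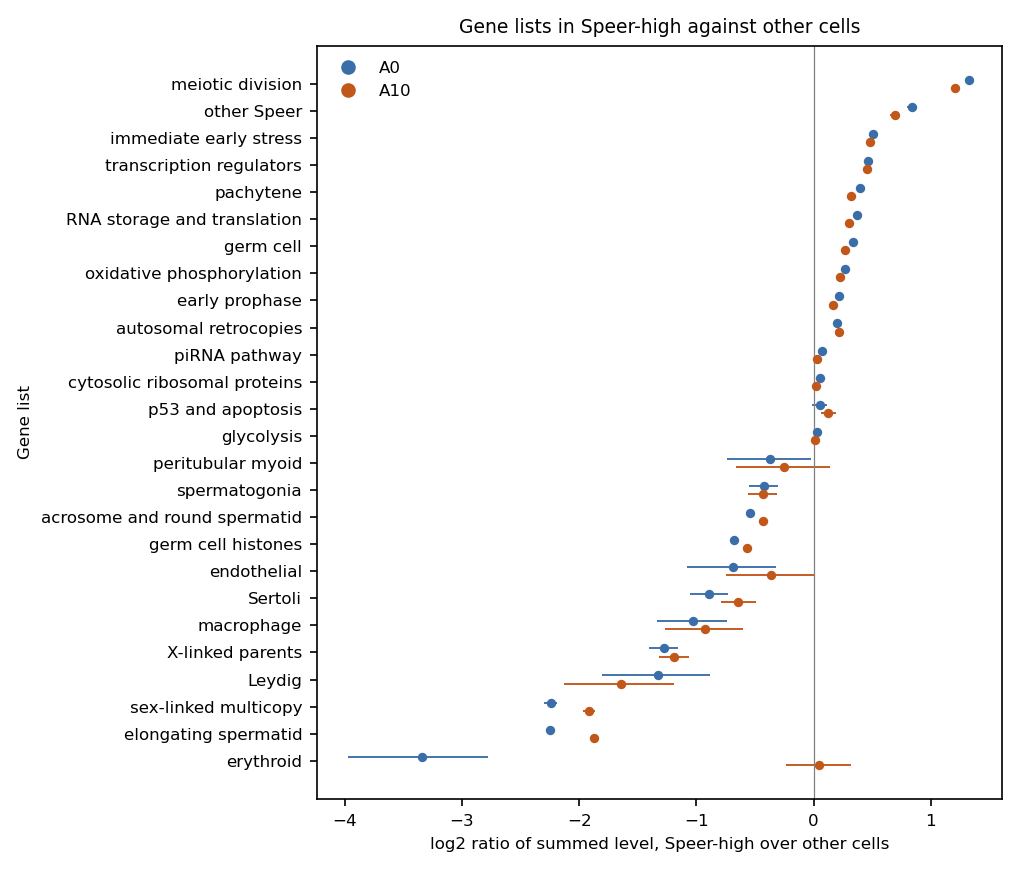
Log2 ratio of the summed level of each gene list, Speer-high over other cells, in A0 (blue) and A10 (orange), with exact 95% conditional binomial intervals. The selected genes are not drawn, and lists are ordered by their value in A0. Of the lists drawn, meiotic division genes stood highest, at 1.33 and 1.20, elongating-spermatid and sex-linked multicopy genes lowest apart from the erythroid list, whose A10 value may rest on a single cell.

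Sex-linked genes were low. The X chromosome gave 0.396% of UMIs in the Speer-high cells and 0.945% in the other cells of A0, and 0.441% and 0.920% in A10. Of 93 X-linked genes compared in A0, 59 were at least 2-fold lower and 5 higher. Of 89 in A10, 54 were lower and 5 higher, beside 18.5% and 16.4% lower and 7.3% and 4.8% higher over all genes. The Cypt genes, a multicopy family of spermatids, were among them: Cypt1 stood at 92.0 against 397.0 CPM and 115.0 against 406.6 CPM. Utp14a, an X-linked gene with an autosomal retrocopy, stood at 10.8 against 43.2 CPM and 12.5 against 40.3 CPM. X-linked genes that, like Utp14a, reached 20 CPM in the other cells alone could enter only as lower. The counts of lower X-linked genes are thus a description. The list of 7 X-linked parents had a summed log2 ratio of -1.28 and -1.19, and that of 7 autosomal retrocopies of 0.20 and 0.22. Of the retrocopies, 2 of 7 were at least 2-fold higher in A0 and 0 of 7 in A10, beside 7.3% and 4.8% over all genes. In the other cells of either library 5 of the 7 retrocopies reached 20 CPM. The rest could be called only as higher, so this count is a description. Chromosome Y gave 0.0109% against 0.0186% of UMIs in A0 and 0.0105% against 0.0161% in A10. Of 3 genes compared, 0 were past 2-fold, beside 7.3% and 4.8% higher and 18.5% and 16.4% lower over all genes.

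The 15 genes that were lowest in the Speer-high cells of both libraries had log2 ratios of -2.71 or below in each. Saxo1, a protein of axonemal microtubules, stood at 4.56 against 78.2 CPM in A0 and 7.22 against 61.5 CPM in A10. Cdyl, a chromodomain protein gene, stood at 32.4 against 321.7 CPM and 42.8 against 305.3 CPM, and Tubb6, a beta-tubulin gene, at 7.17 against 78.4 CPM and 6.19 against 50.1 CPM. Hemgn had log2 ratios of -3.29 and -2.78, Pex5l of -3.25 and -2.72, Rhobtb3 of -3.39 and -2.77 and Acot10 of -3.41 and -2.97. The other 8 of them (Gm35427, 4930523C07Rik, Micalcl, Rbm43, 4931409K22Rik, Vgll3, Asb15 and Rnf148) had log2 ratios between -2.71 and -3.49. Apart from Cdyl, the 15 genes reached 20 CPM in the other cells alone, so they could enter only as lower. Hemgn and Pex5l are leading genes of clusters 11 and 7, which held 0 Speer-high cells.

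Housekeeping lists were nearly level. The 81 ribosomal protein genes had a summed log2 ratio of 0.06 in A0 and 0.02 in A10. Of 74 compared, 0 were past 2-fold, beside 7.3% and 4.8% higher and 18.5% and 16.4% lower over all genes. The 14 glycolysis genes had 0.03 and 0.01, but a median of -0.59 and -0.52. Of them 3 of 11 in A0 and 2 of 11 in A10 were at least 2-fold lower, beside 18.5% and 16.4% over all genes. The 79 oxidative phosphorylation genes had 0.27 and 0.22 and a median of 0.18 and 0.14, beside a median of 0.25 and 0.21 over all genes. Of 71 compared, 2 in A0 and 1 in A10 were at least 2-fold higher and 0 lower. The shares over all genes are those given for the ribosomal genes. Genes of the piRNA pathway had 0.07 and 0.03 and a median of 0.02 and -0.07. Of them 1 of 13 was at least 2-fold lower in A10, beside 16.4% over all genes. RNA storage and translation genes had 0.37 and 0.30, transcription regulators of meiosis and spermatids 0.46 and 0.46 with medians of 0.15 and 0.17, and immediate early genes, of which 1 was at 20 CPM or more, 0.51 and 0.48. Among the regulators, Tbpl1 made up 1633 of 3116 CPM in A0, Sox5 was at least 2-fold lower in both libraries (-1.40 and -1.29) and Sox30 in A0 (-1.14, and -0.98 in A10). The p53 and apoptosis genes had 0.05 and 0.13, with medians of -0.17 and -0.09. Of 11 germ cell histone genes, 8 were compared, of which 1 in A0 was at least 2-fold higher and 4 in A0 and 3 in A10 were lower, beside 7.3% and 4.8% higher and 18.5% and 16.4% lower over all genes. The spermatid linker histone gene H1fnt was among the lower ones, at 112.5 against 842.6 CPM and 137.5 against 707.7 CPM. H2afx, the histone variant phosphorylated at DNA breaks, was the higher one (87.9 against 40.9 CPM in A0, log2 ratio 1.09, and 0.89 in A10).

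The 6 genes and the division genes were also compared across clusters, as a description. Cells of cluster 13 had medians of 39707.5 and 36833.5 UMIs, with 14.2 and 20.9 CPM of the 6 genes. Cluster 6, led by Cdk1, had 18041.5 and 16080 UMIs outside its Speer-high cells, 3485 and 3339 CPM of division genes and 56.3 and 64.8 CPM of the 6 genes. Cluster 0 had division genes at the level of cluster 6 (3678 and 3444 CPM in its Speer-high cells), with Ccna1 at 701.8 and 633.6 CPM against 618.5 and 576.9 CPM, Cdk1 at 144.2 and 127.6 CPM against 290.2 and 286.1 CPM, and fewer UMIs. In cluster 8 the 6 genes had 377.0 and 423.8 CPM outside the Speer-high cells and division genes 2056 and 1985 CPM. In cluster 4 they had 207.0 and 215.6 CPM, and in cluster 2 110.3 and 114.6 CPM, with division genes at 1001 and 909 CPM and acrosome genes at 6631 and 6496 CPM. Cluster numbers carry no time, and each of these clusters held cells of both libraries.

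Gene lists were also followed along the score itself, which is the value the selection used, so this too is a description. Cells ranked 1001 to 2000 had 2457 CPM of division genes in A0 and 2405 CPM in A10, those ranked 2001 to 3000 1568 and 1660 CPM, and those ranked 4001 to 5000 776 and 914 CPM. Acrosome genes went from 2876 and 2822 CPM in the Speer-high cells to 5594 and 5266 CPM at ranks 3001 to 4000. The fall did not go on. At ranks 5001 to 6000, where the cells of score 0 begin (3513 cells in A0 and 3937 in A10, ordered by their place in the table), division genes stood at 1208 and 1227 CPM, acrosome genes at 3573 and 3468 CPM, and the median depth at 20632.5 and 19085 UMIs. From rank 6001 on all cells of both libraries had a score of 0. Median UMIs were 10433 and 9024.5 in the Speer-high cells, 11413.5 and 9571.5 at ranks 1001 to 2000, and 13823 and 12426.5 at ranks 3001 to 4000.

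**Figure D4:**
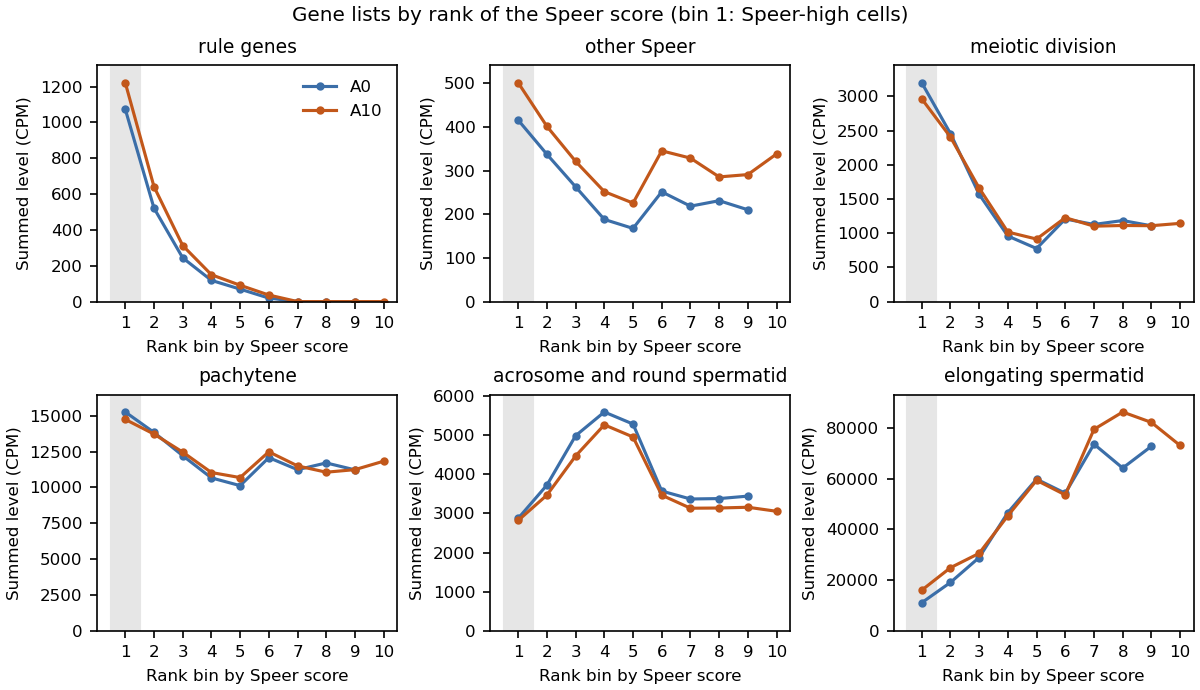
Summed level (CPM) of 6 gene lists in cells ordered by the Speer score, in bins of 1000 cells (the last bin holds 941 cells in A0 and 682 in A10). Bin 1, shaded, is the Speer-high cells. The first panel is the selection itself. Division genes fell over bins 1 to 5 in both libraries while acrosome genes rose to bin 4, in bin 6 division genes were higher again and acrosome genes lower, and cells of score 0 fill the bins from 7 on.

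Among themselves the Speer-high cells differed in depth, with division genes at similar levels in deep and shallow cells. Those over 20000 UMIs had 3148 CPM of division genes in A0 and 2936 CPM in A10, and those at or below 20000 UMIs 3221 and 2976 CPM. Of the deeper cells 11.8% and 9.92% were called doublets, of the shallower ones 1.97% and 4.10%. The 200 cells with the highest scores had 87.5% and 85.0% of their number in clusters 0 and 9, the 200 with the lowest scores 68.0% and 62.0%. Their elongating-spermatid genes stood at 9196 and 13980 CPM in the highest 200 and at 15300 and 21350 CPM in the lowest 200. Doublet calls were 1.5% in the highest 200 of both libraries and 7% and 11.5% in the lowest.

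A10 was then set against A0 within the Speer-high cells. Of 5115 genes at 20 CPM or more, 3 were at least 2-fold higher in A10 (0.0587%) and 3 lower (0.0587%), and the median log2 ratio was -0.03. The total of 6 depended on the setting: it was 3 with 10 CPM added, 1 at a minimum of 50 CPM and 37 with no minimum. In the other cells 2 of 5224 genes were higher (0.0383%) and 2 lower (0.0383%). The 3 higher genes were Speer1, Gm5861 and Zmynd8. Speer1 stood at 42.0 CPM in A0 and 127.5 CPM in A10. Its log2 ratio was 1.58 with 1 CPM added, and the interval of the ratio without that addition was 1.46 to 1.74. In the other cells Speer1 stood at 29.7 and 105.9 CPM (1.80). Gm5861, annotated at chr5:11183072-11187810 beside Speer1, stood at 15.2 and 42.0 CPM (1.41), and at 9.34 and 24.0 CPM in the other cells. It reached 20 CPM in A10 alone, so it could enter the comparison only as higher. Zmynd8, a chromatin reader gene, stood at 23.4 and 48.1 CPM, and at 20.1 and 36.6 CPM.

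The 3 lower genes were Fntb, the farnesyltransferase beta subunit (21.4 CPM in A0 and 5.95 CPM in A10), Dapp1, an adaptor of phosphoinositide signalling (42.1 and 12.6 CPM), and Ciao1, of cytosolic iron-sulfur assembly (23.9 and 9.28 CPM). All 3 reached 20 CPM in the Speer-high cells of A0 alone. They could enter the comparison only as lower, so the count of lower genes is a description. In the other cells these genes were lower in A10 as well, with log2 ratios of -1.25, -1.27 and -0.71. The next genes down were Dut, the dUTPase gene, at 30.7 and 15.1 CPM (-0.98, and -0.20 in the other cells), and Cd320 at 37.9 and 19.0 CPM (-0.96 and -0.89). The remaining 5 of the 10 lowest were Metap1d, Fam227b, Gm3045, Slmap and Hgh1, with log2 ratios between -0.68 and -0.82. Among the 10 highest were also Camk2n1 (0.86), Atp6ap1l (0.83), Prm1 (0.80), 1700092M07Rik (0.75), 4930557A04Rik (0.74), 1700015G11Rik (0.73) and Hypm (0.72). The Speer-high cells of A10 and A0 are each 1 library, so a difference between animals and a difference between treatments cannot be told apart.

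**Figure D5:**
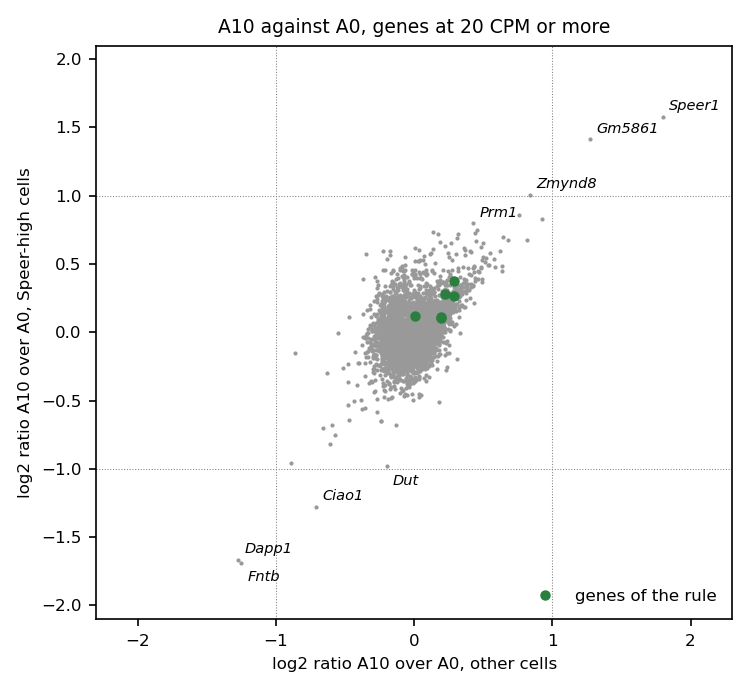
Log2 ratio of A10 over A0 for each gene at 20 CPM or more in the Speer-high cells, in other cells (horizontal) against Speer-high cells (vertical). Dotted lines mark 2-fold, green points are the 6 genes of the selection. Speer1 and Gm5861 lie past 2-fold in both pools, as do Fntb and Dapp1 in the other direction, and Dut is displaced in the Speer-high cells more than in the others.

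The 6 genes of the selection were 0.11 to 0.38 higher on the log2 scale in A10 than in A0 in the Speer-high cells, and 0.00 to 0.29 in the other cells. At the limit of A0, 13% of A10 cells would have counted as Speer-high, against 11.2% in A0. This share rests on the score of the selection and is a description, and the cells of A10 were shallower (median 10948 against 12685 UMIs), whose part in it was not tested. By lists, division genes were at 3199 CPM in A0 and 2964 CPM in A10 (log2 ratio -0.11), pachytene genes at -0.05 and acrosome genes at -0.03. The largest difference of a germ cell list was that of elongating-spermatid genes, 11085 and 16024 CPM (0.53, and 0.16 in the other cells). Cluster 10 held 6.90% of Speer-high cells in A0 and 11.1% in A10. Within clusters the list was higher in the Speer-high cells of A10 too. It stood at 7427 and 9395 CPM in cluster 0, 8093 and 10540 CPM in cluster 9, and 9564 and 11437 CPM in cluster 8. The cells of these clusters that were not Speer-high had 7596 and 9940 CPM, 8342 and 11019 CPM, and 9953 and 12354 CPM. Within these clusters the difference was thus not particular to Speer-high cells. The part of the cluster shares in the difference was not tested. Prm1 was at 2514 and 4382 CPM in all Speer-high cells and at 1803 and 2633 CPM in those of cluster 0. In the other cells of cluster 0 it was at 1854 and 2791 CPM. In the Speer-high cells not called doublets the list stood at 9694 and 13292 CPM and Prm1 at 2116 and 3471 CPM. The part of doublets in these differences was not tested beyond these values.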

How the data were processed

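Droplet single-cell RNA libraries were made with 3′ chemistry, 1 per group (A0, A10, B0, BA10). Per the labels, the authors counted UMIs with Cell Ranger 2.2.0 on mm10. The deposited values are natural log values, taken of UMIs scaled to 10000 per cell with 1 added. Whole UMIs were recovered for 100% of values above 0 within 0.001. The authors removed cells under 200 genes and genes in under 3 cells. Speer-high cells were the 1000 highest per library by the mean of 6 genes, ties by column order. The cells, gene lists and comparisons were chosen with earlier results of these data known. UMIs were summed per pool and scaled to 1000000 (CPM). Genes at 20 CPM or more in either pool were compared with 1 CPM added, and list sums and the intervals of ratios were taken without it. No test was run, as each group had 1 library. Named genes were the 6 genes, all Speer genes, the 15 highest and 15 lowest by the smaller log2 ratio of both libraries, and the 10 highest and 10 lowest of A10 over A0, with list examples. Gm6650 and genes that lead clusters were named after their values were seen. Clusters (scanpy 1.11.5, Leiden resolution 1, 30 components, 2000 variable genes) left Speer genes out. Scrublet used an expected rate of 6%. In simulated pools with 200 altered genes, the known log2 ratio was recovered to 0.25 for 92.5% (A0, 5149 genes), 90.0% (A10, 5101 genes) and 90.0% (A10 over A0, 5025 genes) of them. GENCODE M21 placed 17546 of 18419 symbols.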

Additional observations from a re-analysis of the deposited data

Results flagged for a closer look

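Some gene lists had an A10 over A0 ratio of opposite sign in the Speer-high and the other cells, each with a counting interval that left out 0. The difference between the pools was not tested. Pachytene genes had log2 ratios of -0.0497 in the Speer-high and 0.0232 in the other cells, meiotic division genes -0.110 and 0.0126, and germ cell histone genes 0.0617 and -0.0457. Erythroid genes had 2.31 and -1.08. That list holds Hba-a1 but not Hbb-b1. Of the 300 UMIs of Hba-a1 and Hbb-b1 in the Speer-high cells of A10, 278 lay in 1 cell, whose part in the list was not tested.

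The BA10 library was not part of the comparisons. At the lowest Speer-high score of A0, 21.4% of its cells (interval 20.1 to 22.7) were at or above the limit, against 11.2% in A0. These 807 cells had a median of 12603 UMIs, below the 17989 of all BA10 cells, 3465 CPM of meiotic division genes and 972 CPM of elongating-spermatid genes. All cells of A0 had a median of 12685 UMIs. The authors placed a smaller share of BA10 than of A0 cells with spermatids and a larger share with spermatocytes. The part of depth and cell make-up in the 21.4% was not tested.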

How the results depend on the processing

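Alternatives were other numbers of cells, other scores, and cells chosen on a random split of their UMIs and measured in the UMIs not used. Others were pools limited to a depth window, thinning to 5000 UMIs, means over cells, no called doublets, and other pseudocounts and minimum levels. The alternative of Speer-high cells of clusters 0 and 9 only was chosen after seeing the data. The depth window ran from the 5th to the 95th percentile of the UMIs of Speer-high cells. Within it the pools were not matched in depth. The ratio of median UMIs was always taken on the whole UMI count of a cell, also for the random split. It stayed below 1 under all alternatives run for it, each of which chose cells by a score scaled to the UMIs of the cell. It left its interval in A0 with 2000 cells (0.813), the summed UMI share as score (0.783), and Speer4e and Speer4c only (0.817). The same held for A0 with the random split (0.825), the depth window (0.827), no called doublets (0.821) and clusters 0 and 9 only (0.782). In A10 the ratio left its interval with 500 cells (0.789), the summed share (0.784), the random split (0.833) and the depth window (0.830). It also did so with no called doublets (0.833) and clusters 0 and 9 only (0.781). Genes past 2-fold numbered 1458 in A0 and 1175 in A10, and 2633 and 2178 with no minimum level (625 and 457 higher), which brings in more genes. Among higher genes alone, A10 had 266, and 463 in the depth window, 430 after thinning and 469 as means over cells. It had 172 at a minimum of 50 CPM and 129 with 10 CPM added. A0 had 412, and 206 with 10 CPM added. For A10 over A0 in Speer-high cells, the 6 genes became 3 with 10 CPM added, 1 at a minimum of 50 CPM and 37 with no minimum. All other totals of both directions stayed within 1.5 times.

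Of 672 list values under alternatives, 642 kept their sign and side of 2-fold. Those past 2-fold that turned sign were of scarce transcripts: erythroid genes in A0 with 2000 cells (0.72), and Leydig genes in A10 with the 4 Gm genes as score (0.41), the random split (0.58) and thinning (0.04). Erythroid genes in A10, at 0.04, ranged from -0.65 to 0.91. The cause was not tested. Of 1488 values of named genes, 1467 kept sign and side, and 0 of those past 2-fold turned sign. Meiotic division genes ranged from 1.21 to 1.41 in A0 and from 1.14 to 1.32 in A10. The top 2 clusters held 86.4% and 80.8% of Speer-high cells at Leiden resolution 0.5, and 56.8% and 60.0% at resolution 2. No paired analysis was possible because each group is 1 library and the replicate numbers pair nothing. Depth limits genes under about 20 CPM, and cells under the UMI limit of each library are not seen.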

Other observations

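B0, the library of busulfan alone, also held cells past the limit of A0: 334 of 4659 cells (7.17%, interval 6.44 to 7.95). Their median depth was 9287.5 UMIs, above the 4214 UMIs of all B0 cells, the opposite order to that in A0, A10 and BA10. The authors placed most B0 cells with Leydig and Sertoli cells, unlike the cells of the other libraries. All B0 cells are thus a reference of another make-up, whose part in this order was not tested. The 334 cells had 2453 CPM of meiotic division genes, 1729 CPM of the 6 genes and 657 CPM of elongating-spermatid genes. Elongating-spermatid genes in cells past this limit were thus at 11090 CPM in A0, 17200 CPM in A10, 657 CPM in B0 and 972 CPM in BA10.

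Among 13 leading genes of the Speer-high cells with a RefSeq promoter, the letters TGATGTCA on either strand were in those of Gm21149, Gm9758, Gm21680 and Gm3476, and TGACGTCA in that of Chgb, beside 3.62% and 1.79% of all promoters. Gm21149, Gm9758 and Gm21680 share sequence with the selected genes, so their matches are not independent.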
